A study of Mus musculus with 8 samples.

Results

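The fatty acid desaturases Scd1, Scd2, Fads1, Fads2 and Fads3 and the elongases Elovl1, Elovl2, Elovl3, Elovl5 and Elovl6 were followed in mouse liver over 4 diet groups. These 10 genes form a fixed list of names, and a probe belonged to a gene when the array file gave that gene's name. They were read by 12 of the 41174 gene probes on the array, because Elovl5 and Fads3 had 2 probes each. All 12 probes were well above background on all 8 arrays, so none of the 10 genes was lost to the filter on dim probes, and they stood among 17259 genes tested.

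Liver RNA came from male mice of the inbred strain C57Bl/6J, aged 14 weeks and fasted for 4 h, with 2 single-colour Agilent arrays per group. BD_HF mice had dams that stayed on standard breeder chow, and after weaning they ate a high fat diet in which fat gave 60% of the calories. LF_HF mice ate the same high fat diet, but their dams had been switched at embryonic day 10.5 to a defined diet low in fat (12% of calories) and sufficient in vitamin A. LF_LF mice had that sufficient low fat diet before and after weaning, and VAD_VAD mice had a low fat diet of the same fat content without sufficient vitamin A in both periods; the labels do not repeat the starting day for these groups. All dams began on the breeder diet. The labels do not say that the samples of a group came from separate animals, so the tests measure the spread between these samples, which may be technical. A whole-liver array cannot tell fewer cells of a type from less RNA per cell.

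Desaturases insert a double bond into an activated fatty acid, and elongases of the Elovl family add carbon to its chain in the endoplasmic reticulum. In the monounsaturated branch, newly made palmitate is lengthened by Elovl6 and desaturated by stearoyl-CoA desaturases such as Scd1 and Scd2, while Elovl3 lengthens saturated and monounsaturated chains. In the polyunsaturated branch, essential fatty acids from the diet pass through Fads2, Elovl5, Fads1 and Elovl2 towards arachidonic and docosahexaenoic acid. Elovl1, which makes very long saturated chains, and Fads3, known for acting on sphingolipid bases, were assigned to neither branch. In liver, the lipogenic factor SREBP-1c, the nuclear receptors LXR and PPAR-alpha and their partner RXR are textbook regulators of many of these enzymes, and RXR binds a vitamin A metabolite.

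Several of these genes are neighbours. The probe for Scd2 lay at chr19:44381024-44381083 and that for Scd1 at chr19:44469387-44469446, and the probes of Fads3 (chr19:10132641-10132700), Fads2 (chr19:10138750-10139180) and Fads1 (chr19:10270530-10270589) fell in a second cluster on the same chromosome, all in mm9. The Fads2 probe is shown because it reads spliced RNA: its 60 bases were spread over 431 bases of the genome on the minus strand.
Fads2 probe: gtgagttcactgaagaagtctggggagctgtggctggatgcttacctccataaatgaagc
The annotation of exons and untranslated regions at the other probes was not used here. Promoters, taken as the 250 bases before the gene start in RefSeq's GRCm38.p6 table, were matched for 6 of the 10 genes; Scd1, Scd2, Fads1 and Elovl3 were not matched. Those of Elovl5 and Fads3 are shown because these genes had different patterns over the diets, as described below. Capitals mark CCAAT, the NF-Y box, or ATTGG, its reverse, and CACGTG, an E-box; the Elovl5 window is chr9:77917115-77917364 and the Fads3 window is chr19:10041298-10041547, both on the plus strand.
Elovl5: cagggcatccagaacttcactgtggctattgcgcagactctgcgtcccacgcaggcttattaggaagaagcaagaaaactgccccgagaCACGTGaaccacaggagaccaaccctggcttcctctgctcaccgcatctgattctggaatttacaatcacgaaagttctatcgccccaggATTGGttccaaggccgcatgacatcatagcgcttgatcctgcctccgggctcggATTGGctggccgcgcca
Fads3: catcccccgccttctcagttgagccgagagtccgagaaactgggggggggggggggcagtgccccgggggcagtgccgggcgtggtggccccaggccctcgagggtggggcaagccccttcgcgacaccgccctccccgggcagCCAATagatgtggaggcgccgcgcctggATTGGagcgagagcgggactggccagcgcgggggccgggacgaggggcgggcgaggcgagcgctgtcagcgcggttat
The Elovl5 window held CCAAT in 2 places and CACGTG once, and the Fads3 window held CCAAT in 2 places. CCAAT occurred in 33.8% and CACGTG in 6.02% of all 32851 promoter windows, counting both strands. AGGTCA, the nuclear receptor core motif, found in 14% of all windows, occurred in Elovl6 and in 1 of the 2 windows of Elovl1. TCACNCCAC, a sterol regulatory element core, TTCNNNGAA, a STAT5 site, and direct repeats of AGGTCA spaced by 1, 2, 4 or 5 bases were in none of the 8 windows of these 6 genes and in 1.05%, 7.02%, 0.0335%, 0.00913%, 0.0152% and 0.00913% of all windows. A match describes these letters and not a bound site.

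Levels below are log2 processed signals minus the array's 75th percentile, and differences are in log2 units with their standard error (SE). Since different probes bind differently, each gene is compared only with itself. An adjusted p comes from limma with Benjamini-Hochberg adjustment over all 17259 genes, with all 8 arrays in the fit, and a gene is said to have risen or fallen only where it was under 0.05. LF_HF replicate 1 stood apart: 82.2% of its probes passed the background flag, where the other 7 arrays had 56.5% to 64.2%, and it had 2764 outlier spots where they had 66 to 365. Replicates differed with an SD of 1.47 over genes in LF_HF and of 0.407 to 0.711 in the other groups. Many of the differences that involve LF_HF are therefore also given without LF_HF replicate 1.

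Scd2 was the gene of the 10 with the widest range of group means, 3.11. It is the stearoyl-CoA desaturase best known from brain and from tissues other than adult liver. Its level was 1.84 and 1.07 on the LF_LF arrays, -0.92 and -0.65 in BD_HF, -1.03 and -0.62 in VAD_VAD, and -1.37 and -1.95 in LF_HF. Both LF_LF arrays were above all 6 other arrays, BD_HF and VAD_VAD overlapped, and LF_HF was below both. Scd2 fell by 3.11 in LF_HF relative to LF_LF (SE 0.40, 8.66-fold, adjusted p = 0.014). Without LF_HF replicate 1 this difference was -3.41. Scd2 also fell by 2.24 in BD_HF relative to LF_LF (SE 0.40, 4.72-fold, adjusted p = 0.0461). In VAD_VAD the difference from LF_LF was -2.28 (SE 0.40), with an adjusted p of 0.0643. With the replicate number as a block, the adjusted p was 0.0233 for LF_HF and 0.06 for BD_HF, so that the latter missed the threshold. Within the slides, the difference was -3.21 and -3.02 for LF_HF, -2.76 and -1.72 for BD_HF, and -2.87 and -1.69 for VAD_VAD, each relative to LF_LF. Without LF_LF replicate 1 the adjusted p was 0.169 for LF_HF and 0.464 for BD_HF, and without LF_LF replicate 2 it was 0.0952 and 0.222. The BD_HF call was also lost without BD_HF replicate 1 (adjusted p = 0.356), BD_HF replicate 2 (0.273) or either VAD_VAD array (0.0932).

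Fads3 followed a similar course. The level of its brighter probe was 0.53 and 0.18 in LF_LF, -1.39 and -1.29 in BD_HF, -1.25 and -1.38 in VAD_VAD, and -0.67 and -1.83 in LF_HF. LF_LF was again above all 6 other arrays, and the 3 other groups overlapped with one another. The difference from LF_LF was -1.60 in LF_HF, -1.69 in BD_HF and -1.67 in VAD_VAD (SE 0.43 each, adjusted p = 0.115, 0.134 and 0.2), so Fads3 missed the threshold in all 3 comparisons. The second Fads3 probe gave -1.36, -1.94 and -1.43 with a larger SE of 0.73. Without LF_HF replicate 1, the difference of LF_HF from LF_LF was -2.18 (SE 0.28, adjusted p = 0.00773), that of BD_HF had an adjusted p of 0.00933 and that of VAD_VAD of 0.0135; Scd2 had adjusted p of 0.00646, 0.0119 and 0.0155 in that fit, in which the single LF_HF array is assumed to vary like the other groups. Without LF_HF replicate 2 instead, the difference of LF_HF was -1.02 (SE 0.28, adjusted p = 0.0406).

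**Figure D1:**
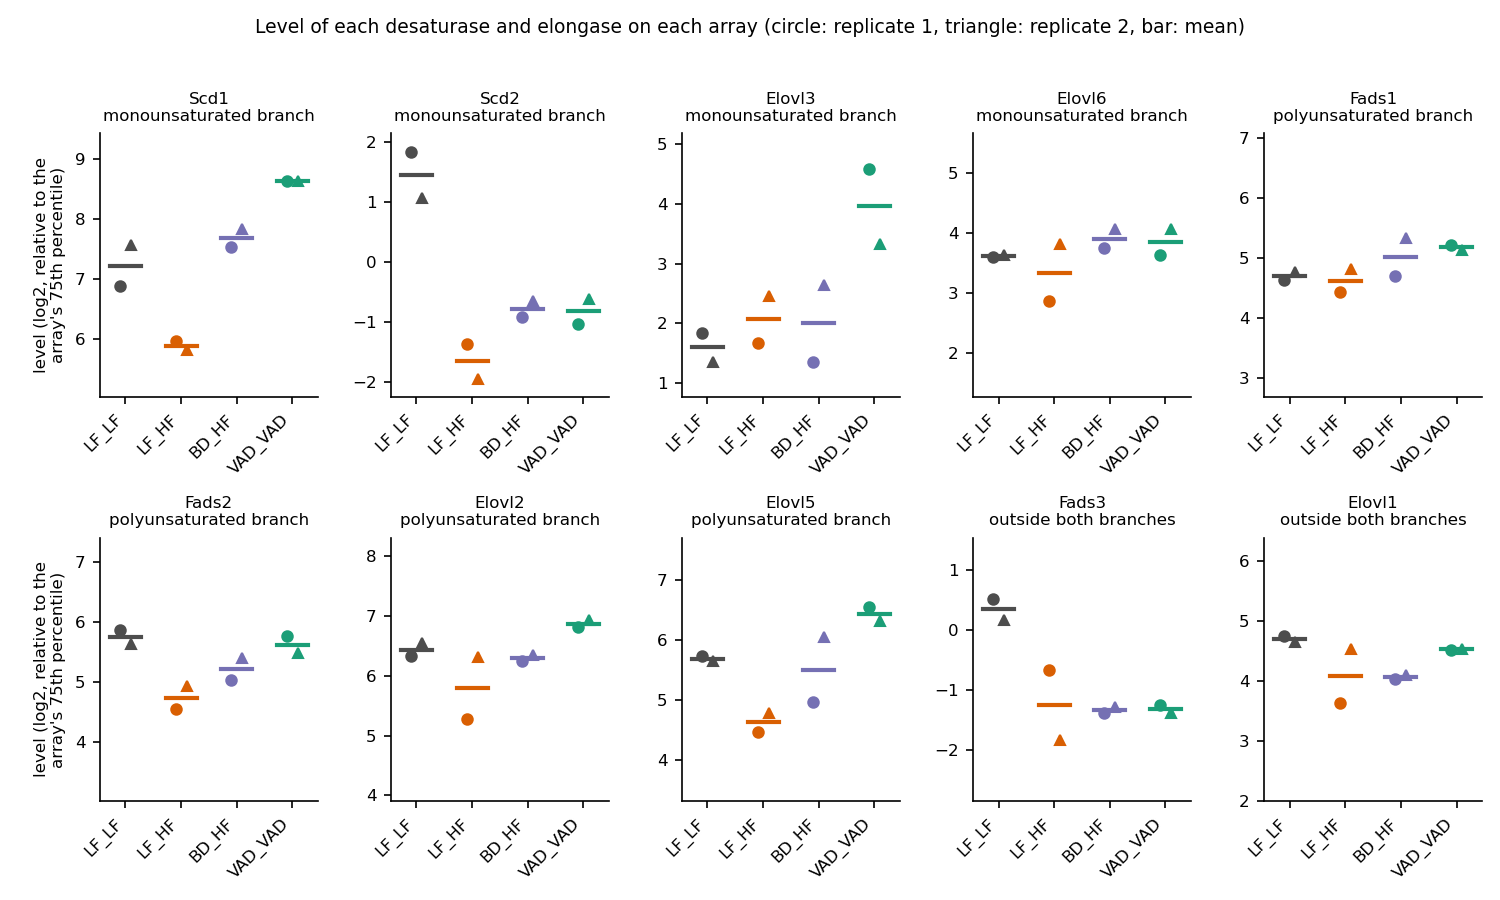
Level of each of the 10 genes on each of the 8 arrays (log2, relative to the array's 75th percentile; every panel spans the same number of log2 units), with circles for replicate 1, triangles for replicate 2 and a bar for the group mean. Scd2 and Fads3 sit highest on both LF_LF arrays, whereas Scd1 and Elovl3 sit highest on both VAD_VAD arrays.

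Scd1, the main stearoyl-CoA desaturase of adult liver and a classical lipogenic gene, had another order. Its level was 8.64 on both VAD_VAD arrays, 7.53 and 7.83 in BD_HF, 6.87 and 7.56 in LF_LF, and 5.96 and 5.82 in LF_HF. VAD_VAD was above and LF_HF below all other arrays, while BD_HF and LF_LF overlapped. The difference from LF_LF was 1.42 in VAD_VAD (SE 0.35, adjusted p = 0.183), -1.33 in LF_HF (SE 0.35, adjusted p = 0.11) and 0.46 in BD_HF (SE 0.35, adjusted p = 0.703). BD_HF exceeded LF_HF by 1.79 (SE 0.35, adjusted p = 0.782), which was the 15th smallest of the 17259 unadjusted p-values in that comparison (0.00107). Scd1 therefore missed the threshold in every comparison of the main fit, although the groups VAD_VAD, LF_HF and LF_LF did not overlap. Over all alternatives its direction was kept in each of the 4 comparisons. Without LF_HF replicate 1 the differences were -1.40 from LF_LF (adjusted p = 0.058) and 1.86 for BD_HF relative to LF_HF (adjusted p = 0.172). In that fit VAD_VAD exceeded LF_LF with an adjusted p of 0.0467.

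Elovl3, an elongase with strong sex and daily rhythms in rodent liver, was highest in VAD_VAD. Its level there was 4.58 and 3.33, against 1.84 and 1.36 in LF_LF, 1.68 and 2.46 in LF_HF, and 1.36 and 2.64 in BD_HF. The last 3 groups overlapped. The difference of VAD_VAD from LF_LF was 2.36 (SE 0.59, 5.13-fold, adjusted p = 0.193), and it ranged from 1.73 to 2.99 over the alternatives. Elovl6, which lengthens palmitate, varied little: its group means spanned 0.57, from 3.34 in LF_HF to 3.91 in BD_HF. Elovl6 was at 2.86 and 3.82 in LF_HF, at 3.61 and 3.64 in LF_LF, at 3.64 and 4.07 in VAD_VAD and at 3.76 and 4.07 in BD_HF, so only LF_LF and BD_HF did not overlap.

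Among the polyunsaturated enzymes, Elovl5, which lengthens the products of Fads2, had the widest range of group means. Its level was 6.55 and 6.31 in VAD_VAD, 5.73 and 5.64 in LF_LF, 4.96 and 6.05 in BD_HF, and 4.46 and 4.78 in LF_HF. VAD_VAD was highest and LF_HF lowest without overlap, and the BD_HF arrays lay on either side of LF_LF. The difference of LF_HF from LF_LF was -1.07 (SE 0.41, adjusted p = 0.26) and that of VAD_VAD was 0.74 (SE 0.41, adjusted p = 0.628). Without LF_HF replicate 1 the difference of LF_HF was -0.91 (SE 0.46, adjusted p = 0.295). The second Elovl5 probe gave -1.01 and 0.66 (SE 0.37 each).

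Fads2, the desaturase that opens the pathway, was at 5.88 and 5.64 in LF_LF, 5.78 and 5.48 in VAD_VAD, 5.04 and 5.40 in BD_HF, and 4.55 and 4.94 in LF_HF. Both high fat groups were below both low fat groups on every array, LF_LF and VAD_VAD overlapped, and BD_HF was above LF_HF. The difference from LF_LF was -1.02 in LF_HF (SE 0.33, adjusted p = 0.183; -0.83 without LF_HF replicate 1, adjusted p = 0.159), -0.54 in BD_HF (SE 0.33, adjusted p = 0.596) and -0.13 in VAD_VAD (SE 0.33, adjusted p = 0.911). Fads1, which acts later in the pathway, spanned 0.56 between group means. It was at 4.63 and 4.77 in LF_LF, 4.43 and 4.81 in LF_HF, 4.70 and 5.33 in BD_HF, and 5.22 and 5.13 in VAD_VAD. VAD_VAD was above LF_LF and LF_HF but not above BD_HF.

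Elovl2, which makes the precursors of docosahexaenoic acid, was at 6.82 and 6.92 in VAD_VAD, 6.33 and 6.54 in LF_LF, 6.25 and 6.35 in BD_HF, and 5.28 and 6.31 in LF_HF. The low value was that of LF_HF replicate 1, and the difference of LF_HF from LF_LF was -0.64 with that array and -0.12 without it (SE 0.40 and 0.26). Elovl1 was at 4.76 and 4.65 in LF_LF, 4.51 and 4.54 in VAD_VAD, 4.02 and 4.10 in BD_HF, and 3.62 and 4.53 in LF_HF. Its difference of LF_HF from LF_LF was -0.63 with LF_HF replicate 1 and -0.18 without it, and both values missed the threshold.

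For the diet after weaning, LF_HF minus LF_LF, 1 of the 10 genes, Scd2, was called, against 2.58% of all genes (446 of 17259). Of the 10, 9 were lower in LF_HF, and the median difference was -0.83, against -0.06 over all genes. For 7 of the 10 the arrays of the groups did not overlap, all 7 lower in LF_HF, against 42.2% of all genes without overlap in either direction. Without LF_HF replicate 1, Fads1 and Elovl6 were above LF_LF (0.11 and 0.20), the median was -0.50 and Scd2 and Fads3 were called, where 11.2% of all genes were. On LF_HF replicate 1 alone, the array that stood apart, the differences from the LF_LF mean ran from -2.82 for Scd2 to 0.08 for Elovl3. Scaling to the array median in place of the 75th percentile moved the median gene by -0.71 in this comparison and turned the sign of Elovl3 to -0.27.

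In the other comparison of high with low fat, BD_HF minus LF_LF, in which the maternal diet differs too and which the study's design does not list, 1 of the 10 was called, again Scd2, against 1.62% of all genes. Here 4 of the 10 were higher and 6 lower, with a median of -0.16 against 0.08 over all genes. The groups did not overlap for 5, of which 4 (Scd2, Fads2, Fads3 and Elovl1) were lower and Elovl6 was higher, against 59.5% of all genes. This comparison and the previous one share the LF_LF arrays.

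The maternal diet under the same high fat feeding was compared as BD_HF minus LF_HF. None of the 10 was called by limma, with 1 at an unadjusted p under 0.05 (Scd1), and 0.00579% of all genes were called (1 of 17259, Tmem150b at -4.27, named after its value was seen). Of the 10, 7 were higher in BD_HF, the median difference was 0.49 against 0.17 over all genes, and 4 did not overlap (Scd1, Scd2, Fads2 and Elovl5, all higher in BD_HF) against 27.3% of all genes. Without LF_HF replicate 1 the median was 0.25, with Elovl2 at -0.01 and Fads3 at 0.49. Scaling to the median moved the median gene by 0.81 and turned Fads3, Elovl1 and Elovl3 to positive values of 0.75, 0.83 and 0.77. Relative to LF_HF replicate 1, the array that stood apart, BD_HF replicate 1 differed by 1.57 for Scd1 and by 0.97 for Elovl2. Between the samples numbered replicate 2, these differences were 2.01 and 0.03.

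Vitamin A deficiency was compared as VAD_VAD minus LF_LF. None of the 10 passed in limma's main fit, with 4 at an unadjusted p under 0.05 (Scd1, Scd2, Fads3 and Elovl3), and 0.614% of all genes were called. The groups did not overlap for 8 of the 10, against 57.5% of all genes: Scd1, Fads1, Elovl2, Elovl3 and Elovl5 were higher in VAD_VAD and Scd2, Fads3 and Elovl1 lower. The median of the 10 was 0.33 against 0.07 over all genes. With either or both LF_HF arrays left out of the shared estimate of spread, Scd1, Scd2 and Fads3 were called and 5.39% of all genes were; the fitted differences themselves did not change.

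**Figure D2:**
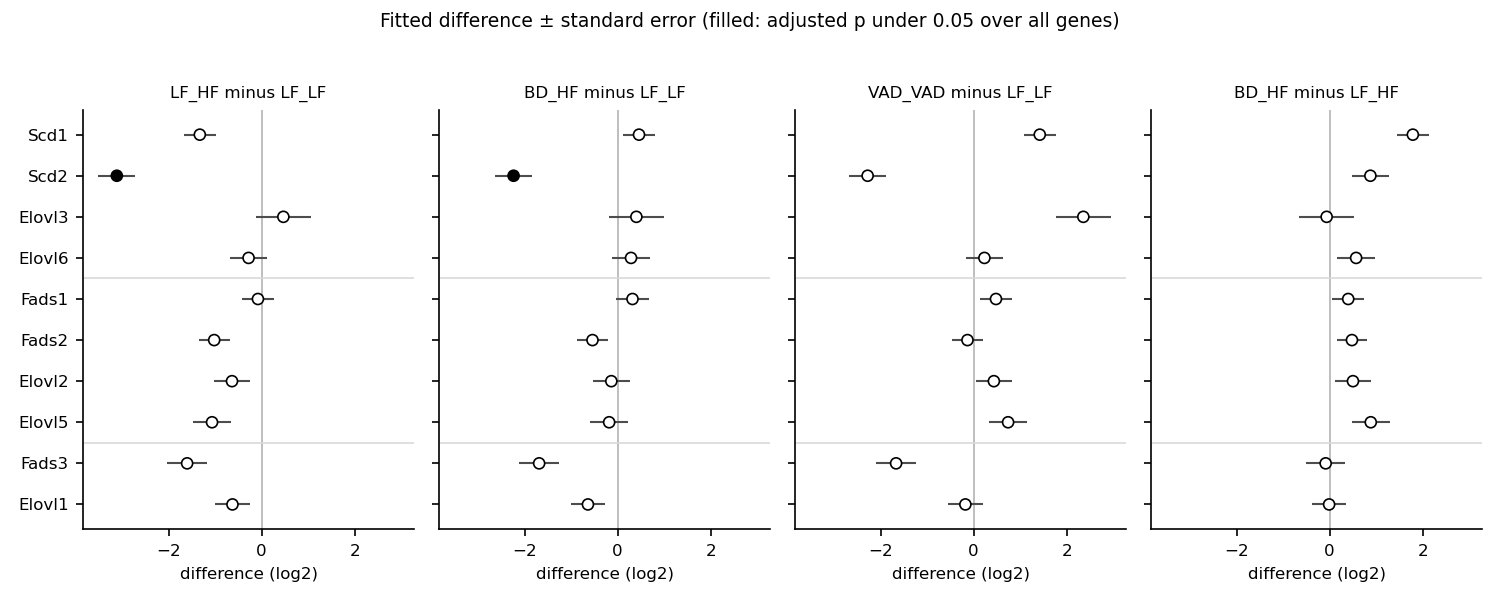
Fitted difference of each gene in the 4 comparisons (log2, first group minus second) with its standard error as a horizontal bar; filled points have an adjusted p under 0.05 over all genes, and grey lines separate the monounsaturated branch, the polyunsaturated branch and the 2 genes outside both. Scd2 is the filled point at -3.11 in LF_HF minus LF_LF and at -2.24 in BD_HF minus LF_LF.

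Set side by side, the fitted differences spread more widely over the 4 monounsaturated genes than over the 4 polyunsaturated ones. In LF_HF minus LF_LF the polyunsaturated enzymes lay between -1.07 and -0.08 and the monounsaturated ones between -3.11 and 0.47, with medians of -0.83 and -0.80. In VAD_VAD minus LF_LF the polyunsaturated enzymes lay between -0.13 and 0.74 and the monounsaturated ones between -2.28 and 2.36, with medians of 0.46 and 0.83. The monounsaturated branch thus held the largest differences in both directions: Scd2 was lower, and Elovl3 and Scd1 were higher, in VAD_VAD. Each of these genes missed the threshold there in the main fit. Elovl3 also had the largest SD within groups of the 10 genes, 0.71 against 0.23 to 0.43. In BD_HF minus LF_HF the polyunsaturated values were 0.40 to 0.88 and the monounsaturated ones -0.06 to 1.79, with medians of 0.49 and 0.72; in BD_HF minus LF_LF the medians were -0.16 and 0.35. By array, the polyunsaturated median relative to the LF_LF mean was 0.45 and 0.46 in VAD_VAD, -0.45 and 0.14 in BD_HF, and -1.18 and -0.47 in LF_HF. The monounsaturated median was 0.72 and 0.93 in VAD_VAD, -0.05 and 0.53 in BD_HF, and -1.01 and -0.60 in LF_HF. In both branches the VAD_VAD arrays were highest and the LF_HF arrays lowest, and the more extreme LF_HF value was that of replicate 1. Without that array the polyunsaturated and monounsaturated medians were -0.47 and -0.60 in LF_HF minus LF_LF and 0.25 and 0.63 in BD_HF minus LF_HF.

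**Figure D3:**
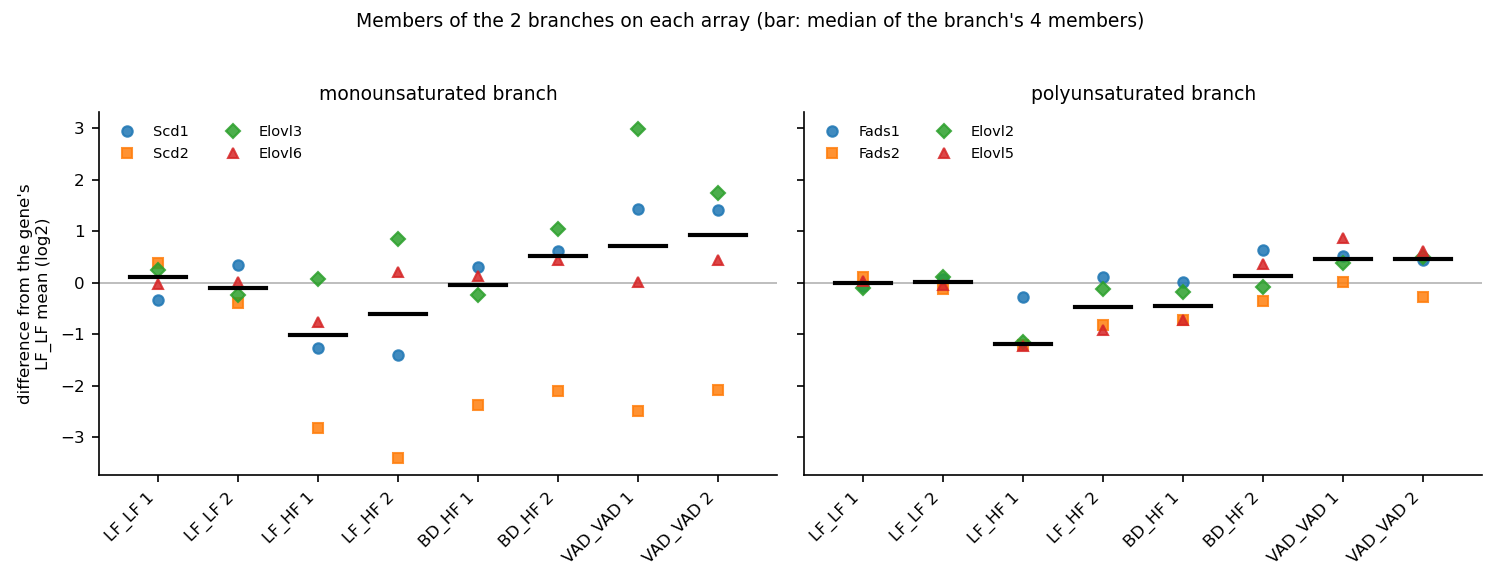
Difference of each gene from its own LF_LF mean (log2) on each array, with the monounsaturated branch at left, the polyunsaturated branch at right and a black bar for the median of the 4 genes. Scd2 lies near -2 to -3.4 on the 6 arrays outside LF_LF while the other monounsaturated genes do not, and the polyunsaturated genes stay closer together.

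Over the 8 arrays, Scd2 correlated with Fads3 at r = 0.903 (0.981 over the 7 arrays without LF_HF replicate 1) and with Scd1 at r = 0.173 (0.0262). Scd1 correlated with Elovl5 at r = 0.883 (0.835), and Fads1 with its pathway partner Fads2 at r = 0.473 (0.123). That was the lowest r of a pair within the polyunsaturated branch. The branch's other pairs ranged from 0.717 to 0.844 over the 8 arrays (0.447 to 0.774 over the 7). Pairs across the branches reached similar values, such as Elovl2 with Elovl6 at 0.801 (0.178) and Scd1 with Elovl2 at 0.775 (0.757). Within the monounsaturated branch, r over the 8 arrays ran from -0.331 (Scd2 with Elovl3) to 0.585 (Scd1 with Elovl3). These values describe 8 arrays in 4 groups, all genes are read on the same arrays, and no p is given. By the naming rule, the genes with the most similar course to Scd1 among 11713 genes above background on all 8 arrays and with an established symbol were Afap1l1 (r = 0.961), Klf15 (0.952), a fasting-responsive transcription factor, and Me1 (0.951), the malic enzyme that supplies NADPH. Those closest to Fads2 were Sptbn1 (0.988), Cyp3a41a (0.983), which has near-identical gene copies and is thus uncertain, and Lgals3bp (0.981). Those closest to Elovl3 were Stim1 (0.981), Zfp672 (0.965) and Arrdc4 (0.961).

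Of 7 other desaturases and elongases, 5 were measured (Elovl7, Scd3, Fads6, Degs1 and Degs2), and Elovl7 fell in all 3 comparisons with LF_LF. Elovl7, an elongase of very long saturated chains, was at 0.27 and -0.19 in LF_LF, -3.62 and -3.47 in BD_HF, -3.13 and -3.60 in VAD_VAD, and -4.13 and -5.05 in LF_HF, and it was above background on every array but LF_HF replicate 2. It fell by 4.63 in LF_HF (adjusted p = 0.00445), by 3.58 in BD_HF (adjusted p = 0.0131) and by 3.41 in VAD_VAD (adjusted p = 0.0243; SE 0.41 each). The size of the LF_HF difference thus rests in part on an array with a dim signal, the only LF_HF array left without LF_HF replicate 1. Without LF_HF replicate 1 the difference was -5.08. Scd3, Fads6, Degs1 and Degs2 missed the threshold in all 4 comparisons, and without LF_HF replicate 1 Degs2 fell in LF_HF, where the array left was not above background, and in BD_HF relative to LF_LF. None of the 11 genes of the elongation cycle and its electron supply passed in any comparison, with medians of 0.43, 0.00, 0.44 and 0.42 in BD_HF minus LF_HF, LF_HF minus LF_LF, VAD_VAD minus LF_LF and BD_HF minus LF_LF. Without LF_HF replicate 1, the first 2 of these medians were 0.01 and 0.42, and 1 gene, Cyb5r1, fell in LF_HF and in BD_HF relative to LF_LF.

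Fatty acid synthesis, which supplies the monounsaturated branch, was followed over 19 genes. Thrsp, the thyroid hormone responsive lipogenic protein, was the only gene of that list that passed in LF_HF minus LF_LF and BD_HF minus LF_LF, and none passed in the other comparisons. Thrsp rose by 3.42 in LF_HF (adjusted p = 0.0177) and by 3.85 in BD_HF (adjusted p = 0.0157), each with an SE of 0.47. Its level was 2.71 and 2.96 in LF_LF against 6.00 to 7.22 on the 4 high fat arrays. On the VAD_VAD arrays, also from a low fat diet, it was at 5.36 and 6.12. The difference of VAD_VAD from LF_LF was 2.90 (SE 0.47, adjusted p = 0.0512, or 0.0321 with the slide as a block). Fasn, the fatty acid synthase, differed from LF_LF by 0.13 in LF_HF, 0.78 in BD_HF and 1.05 in VAD_VAD, and Acaca, acetyl-CoA carboxylase, by 0.05, 0.65 and 0.55; neither passed. The list's median was 0.12, 0.70 and 0.68 in the same order. In the fit without LF_HF replicate 1, Thrsp rose by 3.68 in LF_HF, Fasn and Acaca differed by 0.01 and 0.54, and the list's median there was 0.50. In that fit 3 of the 19 rose in LF_HF relative to LF_LF (Thrsp, Pklr and Dgat2). In BD_HF, Thrsp, Pklr, Dgat2 and Acsl1 rose and Acsl4 fell, and in VAD_VAD, Thrsp, Me1 and Lpin1 rose and Acsl4 fell.

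Of 18 measured regulators of transcription, none was called in any comparison with all 8 arrays; without LF_HF replicate 1, Ppara rose by 1.50 in BD_HF relative to LF_LF (adjusted p = 0.0289). Srebf1, which encodes SREBP-1c, differed from LF_LF by 0.62 in LF_HF, 1.17 in BD_HF and -0.06 in VAD_VAD (SE 0.38), and Mlxipl, which encodes ChREBP, by 0.36, 1.14 and -0.40 (SE 0.47). Insig1, an inhibitor of SREBP processing, differed by 0.89, 0.96 and 0.65 (SE 0.46), and Ppara by 0.52, 1.50 and 0.50 (SE 0.37). The LF_HF differences of these 4 genes were 0.61, 1.00, 0.66 and 0.78 without LF_HF replicate 1. None of the 10 LXR targets was called; without LF_HF replicate 1, Abcg1 and Mylip fell in LF_HF relative to LF_LF. Of 20 PPAR-alpha targets, 1 passed: Cyp4a14, a fatty acid hydroxylase with close copies that can share signal, fell by 5.08 in LF_HF relative to LF_LF (SE 0.73, adjusted p = 0.0215), from 7.24 and 6.96 to 1.20 and 2.85. The fall was 4.25 without LF_HF replicate 1, where Acot2 fell as well; in BD_HF relative to LF_LF the genes called in that fit included Acot3, which was higher, and Acot2 and Fgf21, which were lower. Of the 10 genes of the peroxisomal steps that finish docosahexaenoic acid, none was called; without LF_HF replicate 1, Abcd2 fell in LF_HF relative to LF_LF.

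Male-biased liver genes differed between the groups as well. Of 13 measured male-biased genes, 3 rose in LF_HF and 3 in BD_HF (Hsd3b5, Susd4 and Slco1a1 in each), and 2 rose in VAD_VAD (Susd4 and Slco1a1), all relative to LF_LF. Hsd3b5, a steroid dehydrogenase with similar family members, was at -2.39 and -2.42 in LF_LF, 5.49 and 6.18 in LF_HF, 5.52 and 5.47 in BD_HF, and 1.18 and 4.37 in VAD_VAD. Both LF_LF arrays were below all others for Hsd3b5. With all 8 arrays, 2.58%, 1.62% and 0.614% of all genes were called in LF_HF, BD_HF and VAD_VAD relative to LF_LF. The median of the 13 in LF_HF was 1.06, or 1.46 without LF_HF replicate 1. The rise of Slco1a1 in VAD_VAD missed the threshold with the slide as a block (adjusted p = 0.0562).

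The hepatocyte markers, such as Alb and Apob, were present: 9 of 12 were measured, and their summed level was 2053 to 4854 times the array's 75th percentile. Fgb and Asgr1 had no value on BD_HF replicate 2, where they were left out as outlier spots. Over the 7 markers with a value on all arrays, the sum was 1945 and 1875 in LF_LF and 2945 and 2428 in VAD_VAD. It was 2833 and 2883 in BD_HF, and 1464 and 3280 in LF_HF, where the lower value was that of replicate 1. All 9 measured hepatocyte markers were higher than in LF_LF both in BD_HF and in VAD_VAD, with list medians of 0.41 and 0.62. In LF_HF 6 of the 9 were higher (median 0.14), and without LF_HF replicate 1 all 9 were (0.76). With all 8 arrays 1 of them, Cyp2e1, rose in BD_HF (2.56, adjusted p = 0.0425, or 0.0557 with the slide as a block). Like Scd2, Fads3 and Elovl7, the summed markers of stellate cells, macrophages and cholangiocytes were highest on both LF_LF arrays. Of 12 stellate cell and fibroblast markers, all measured, 5 fell in each of LF_HF, VAD_VAD and BD_HF relative to LF_LF, with list medians of -1.53, -1.98 and -1.06. In LF_HF and BD_HF these were Col1a1, Col1a2, Col3a1, Lum and Pdgfrb, and in VAD_VAD they were Col1a1, Col3a1, Pdgfrb, Ngfr and Lrat. Without LF_HF replicate 1 the median of all 12 markers in LF_HF was -1.70. Their summed linear level, in units of the 75th percentile, was 275 and 228 in LF_LF, 156 and 115 in VAD_VAD, 103 and 132 in BD_HF, and 70.7 and 72.1 in LF_HF. A linear sum weighs the brightest marker most, here Dcn, at 7.36 and 7.06 in LF_LF. Des had no value on LF_HF replicate 1, where it was left out as an outlier spot, and Lrat was not above background on VAD_VAD replicate 1; all other values of the 12 were above background. With the slide as a block, the call of Pdgfrb in VAD_VAD was lost (adjusted p = 0.0552). Col1a1, a fibrillar collagen of activated stellate cells, was at 3.30 and 2.94 in LF_LF and between -1.67 and -0.36 on the 6 other arrays. Lrat, which stores retinol as esters in stellate cells, was at 1.16 and 0.61 in LF_LF and at -5.57 and -4.33 in VAD_VAD.

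Of 11 measured macrophage markers out of 12, 3 fell in LF_HF (Cd68, Lyz2 and Trem2), 1 in VAD_VAD (Trem2) and 3 in BD_HF (Lyz2, Trem2 and Gpnmb), where Timd4 rose. Not all macrophage markers were lower than in LF_LF. Of the 11, 4 were higher in LF_HF, 3 in VAD_VAD and 3 in BD_HF, with list medians of -1.51, -0.62 and -1.18. Clec4f (3.49 and 3.34 in LF_LF) and Timd4 (-3.69 and -3.21) were lowest on both LF_LF arrays. Without LF_HF replicate 1, 2 of the 11 were higher in LF_HF, with a median of -1.55. The call of Lyz2 in BD_HF was lost with the slide as a block (adjusted p = 0.0573). Their summed level was 156 and 141 in LF_LF, 57.3 and 87.0 in VAD_VAD, 54.2 and 64.3 in BD_HF, and 46.8 and 42.4 in LF_HF. The brightest macrophage marker in LF_LF was Lyz2, at 6.76 and 6.54. Trem2, a receptor of lipid-associated macrophages, was at 3.14 and 3.15 in LF_LF and between -0.71 and 0.70 elsewhere. Gpnmb and Itgam were not above background on any BD_HF array, and Gpnmb was also below it on VAD_VAD replicate 2 and, with Itgam, on LF_HF replicate 2. Only in LF_LF was Gpnmb above background on both arrays, so the filter kept it through the group where it was highest. The fall of Gpnmb relative to LF_LF was thus partly set by the filter, and its size in BD_HF is only a bound. Of 7 measured cholangiocyte markers out of 8, 2 fell in LF_HF (Krt19 and Spp1), 1 in VAD_VAD (Krt23) and none in BD_HF, where the list's median was -1.44. All 3 calls were lost with the slide as a block (adjusted p = 0.0794, 0.0522 and 0.0611), and Krt19 had no value on LF_HF replicate 1. The median of the 7 in LF_HF relative to LF_LF was -1.685, or -1.825 without LF_HF replicate 1. The summed level of the cholangiocyte markers was 19.9 and 29.2 in LF_LF and 6.48 to 12.0 on the other arrays. Spp1, at 3.60 and 4.22, was the brightest of them in LF_LF and made up most of the sum there. Endothelial marker sums were 36.5 and 36.8 in LF_LF, 27.1 and 16.6 in LF_HF, 49.1 and 61.9 in BD_HF and 47.5 and 60.0 in VAD_VAD. Adipocyte sums, with 7 of 10 markers measured, were 59.0 and 73.5 in LF_LF, 100 and 5.99 in VAD_VAD, and 4.59 to 23.4 on the high fat arrays. In LF_LF most of this sum came from Cidec. Cidec, a lipid droplet protein that fatty liver also expresses, was at 5.64 and 5.95 in LF_LF and differed by -5.26 in LF_HF (adjusted p = 0.111). In contrast, 5 of the 7 adipocyte markers were higher in LF_HF (list median 0.96). Without LF_HF replicate 1, 4 of the 7 were higher, with a median of 0.34 and Cidec at -4.68. None of the 7 was called with all 8 arrays, where Cfd differed by 5.80 in BD_HF relative to LF_LF. Neutrophil sums, with 6 of 9 markers measured and S100a9 the brightest, were 20.2 and 26.7 in VAD_VAD and 1.89 to 6.50 elsewhere. For the erythroid list 4 of 8 markers were measured, with Hba-a1 the brightest. Erythroid sums were 189 and 341 in VAD_VAD, 187 and 165 in BD_HF, 84.4 and 87.5 in LF_LF and 62.5 and 91.3 in LF_HF. The part of any of these marker lists in the levels of Scd2, Fads3 or the other genes was not tested.

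**Figure D4:**
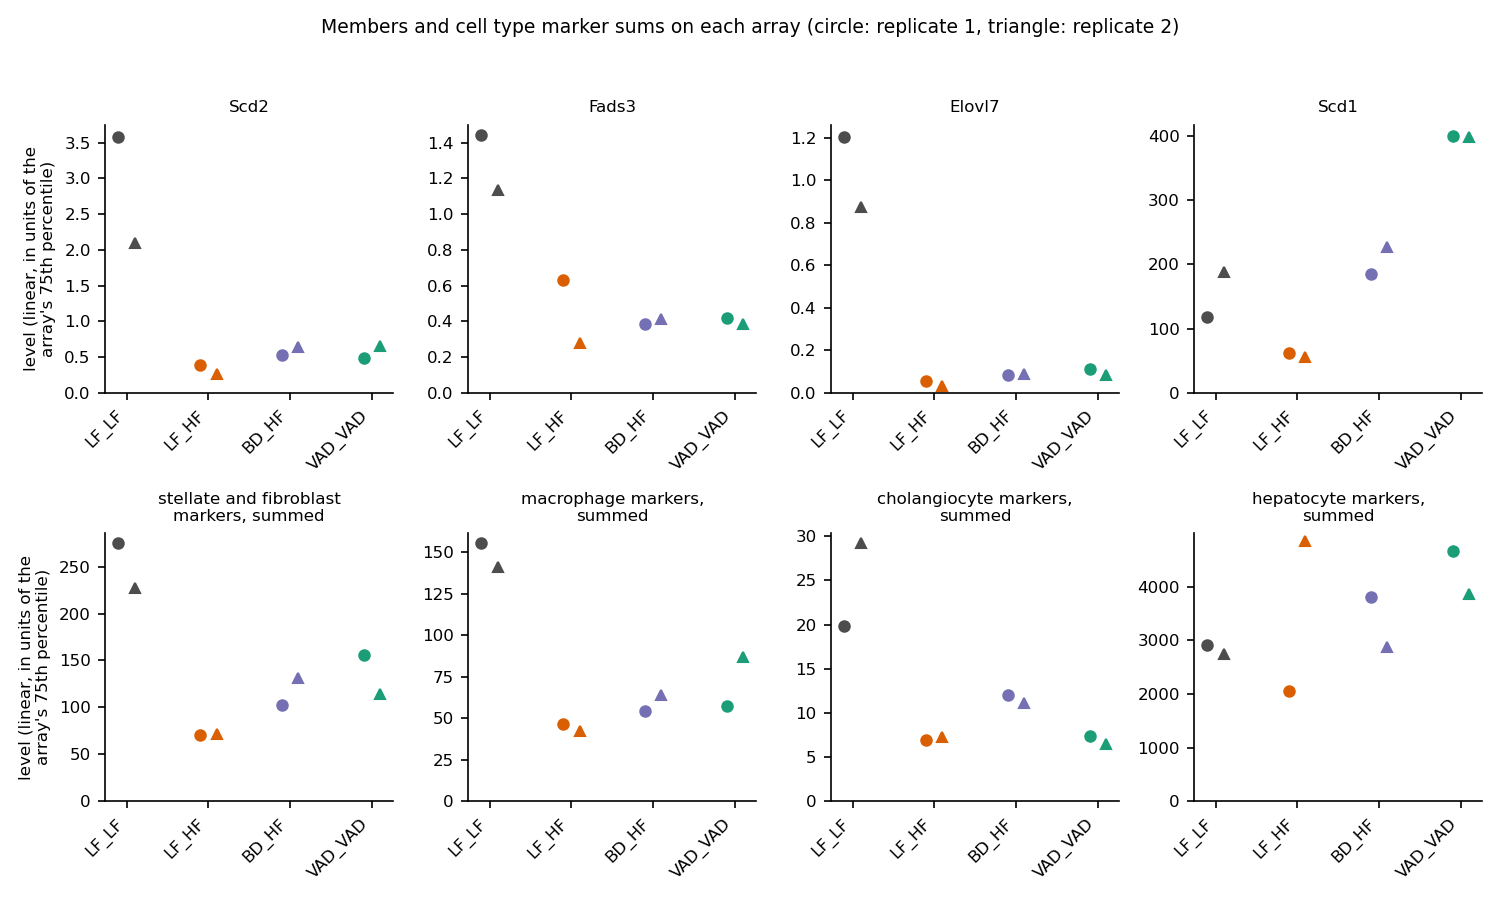
Linear levels of Scd2, Fads3, Elovl7 and Scd1 (top) and summed levels of 4 marker lists (bottom) on each array, in units of the array's 75th percentile, with circles for replicate 1 and triangles for replicate 2. Scd2, Fads3, Elovl7 and the stellate, macrophage and cholangiocyte sums are highest on both LF_LF arrays, whereas Scd1 and the hepatocyte sum are not; the hepatocyte sum on BD_HF replicate 2 lacks Fgb and Asgr1, which had no value there.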

How the data were processed

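Liver RNA from 8 mouse samples (4 diet groups of 2) was labelled with Cy3 and hybridised to single-colour Agilent arrays, per the labels' protocols. The deposited processed signal is a linear-scale intensity written by Feature Extraction 10.7.3.1 per the file header; a flag for spots well above background was deposited with it. The submitters' processing notes also name limma. The deposited series table held the same intensities within 0.497%. The number of arrays per group limits the precision.

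Outlier spots were left out, spots of a probe averaged, log2 taken and the array's 75th percentile subtracted. A probe was kept if any group had it above background on both of its arrays (26224 probes), and the probe with the highest mean stood for its gene. limma 3.58.1 (lmFit, eBayes; R 4.3.3) fitted all 8 arrays with a mean per group, and p-values were Benjamini-Hochberg adjusted over 17259 genes (threshold 0.05). The script was checked on simulated data. Tables and figures used data.table (version 1.17.8), pandas and matplotlib. Gene names came from the array files, updated through RefSeq's GRCm38.p6 table; probe positions are the files' mm9.

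The genes and lists were chosen with earlier results of these data known. Named were all 10 genes; of each other list, called genes, at most the 3 largest per comparison and direction, with 7 fixed genes; and the 3 genes most correlated with Scd1, Fads2 and Elovl3. Marker genes were named as examples after their values were seen. Every replicate 1 lay on 1 slide and every replicate 2 on the other; deviations of same-numbered samples correlated at 0.0984 to 0.305. That is above 0.1 in 5 of 6 pairs of groups, and the blocked fit was run as an alternative. Other alternatives changed the background correction, scaling, filter, probe summary, variance model, groups in the fit and single arrays.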

Additional observations from a re-analysis of the deposited data

How the results depend on the processing

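Of 820 differences of the 10 genes over alternatives, 740 kept their direction and side of the threshold, 15 lost and 47 gained significance, 18 turned sign while uncalled in the main fit, and 0 called values reversed. Genes called of all tested, in the order BD_HF minus LF_HF (main 1), LF_HF minus LF_LF (446), VAD_VAD minus LF_LF (106) and BD_HF minus LF_LF (280), are given first, and the 10 genes (main 0, 1, 0 and 1) second. Normexp with the 75th percentile gave 1, 2535, 379 and 736, with 0, 4, 4 and 2. Its split in LF_HF minus LF_LF was 1453 higher and 1082 lower, against 103 and 343, and in VAD_VAD minus LF_LF 103 and 276, against 16 and 90. Normexp with quantile gave 1, 1407, 389 and 872, with 0, 3, 2 and 3. The median in place of the 75th percentile gave 0, 141, 37 and 62, with 0, 1, 0 and 0; its splits in LF_HF and BD_HF minus LF_LF were 14 and 127, and 9 and 53, against 80 and 200. No filter gave 0, 30, 0 and 0 (unadjusted p under 0.05 in limma: 1116, 4423, 1473 and 1869), with none of the 10. Probes above background on all 8 arrays gave 0, 627, 171 and 327, with 0, 1, 1 and 1. The median of a gene's probes gave 1, 303, 68 and 173, with 0, 1, 0 and 0. Trend and robust variances gave 1, 849, 293 and 615, with 0, 2, 3 and 2. Array weights gave 0, 19, 1169 and 2822, with 0, 0, 4 and 2. Only the 2 groups compared gave 0, 0, 518 and 2569, with 0, 0, 1 and 2. The replicate block (slide) gave 0, 382, 62 and 249, with 0, 1, 0 and 0, and Scd2 in BD_HF minus LF_LF at an adjusted p of 0.06; it changed no other call of the 10. Without both LF_HF arrays the last 2 comparisons gave 931 and 1604, with 3 and 2. Leaving out single replicates gave 0 to 3069, 0 to 4335, 0 to 931 and 0 to 1604 genes, and 0 to 2, 0 to 6, 0 to 3 and 0 to 2 of the 10. Where BD_HF minus LF_HF had 0 calls in limma, 627 (median), 767 (all 8 arrays), 301 (weights), 1301 (block) and 378 (2 groups) genes had an unadjusted p under 0.05, and LF_HF minus LF_LF had 1859 with only its 2 groups. Why the counts move was not tested. Scd2 in LF_HF minus LF_LF ranged from -3.85 to -2.33 and lost its call with no filter (adjusted p = 0.0939), array weights (0.264), only the 2 groups (0.148) and without either LF_LF array; adjusted p ranged from 0.000111 to 0.264. In BD_HF minus LF_LF it ranged from -2.63 to -1.81, with adjusted p from 0.00182 to 0.477. Signs also turned for Elovl2 (-0.01 with normexp and quantile) and Fads2 (0.02 without VAD_VAD replicate 2) in VAD_VAD minus LF_LF, and for Elovl5 (0.36 without BD_HF replicate 1) and Elovl3 (-0.24 without BD_HF replicate 2) in BD_HF minus LF_LF.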
